A study of Mus musculus with 9 samples.

Results

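The genes described here are Myc and the genes of ribosome biogenesis, 39 in all, measured in pmel1 CD8+ T cells under 3 antibody treatments. They were picked by name: a row of the array table belongs to a gene where the row's gene symbols are or include that name, and the row with the highest mean over the 9 arrays stands for the gene. All 39 genes were found, with 1 row each, among the 32194 rows tested. Of these rows, 37 name a single gene. The row of Nop56 also names Snord57 and the row of Gnl3 also names Snord19, small nucleolar RNAs that lie in introns of those genes, so the signals of the spliced gene and of the intron cannot be told apart there.

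Naive congenic mice received Thy1.1+ CD8+ T cells of pmel1 mice, whose transgenic T cell receptor recognises the melanocyte antigen gp100, and were then given 100 µg of hgp100 peptide together with 400 µg of antibody. Combination mice received 200 µg of the agonist anti-CD27 antibody AT124 with 100 µg of anti-PD-1 and 100 µg of anti-PD-L1. Anti-CD27 mice received 200 µg of AT124 with 200 µg of isotype control antibodies, and anti-PD-1/L1 mice received 100 µg of each blocking antibody with 200 µg of isotype control antibodies. On day 4, Thy1.1+ CD8+ cells were sorted from the spleen of each mouse and their RNA was put on 1 array, which gives 3 mice and 3 arrays in every group. All 3 groups had peptide, and all cells carried 1 receptor and sat in hosts that kept their own lymphocytes. A group given peptide with isotype control alone was not analysed here.

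A ribosome is assembled in the nucleolus. RNA polymerase I transcribes the long ribosomal RNA precursor, small nucleolar ribonucleoproteins (snoRNPs) modify and help to cut it, and separate sets of factors build the small and the large subunit around it. Myc, a transcription factor that binds DNA as a dimer with Max, is known to raise transcription of many of these genes when T cells are activated and start to grow and divide.

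Values below are log2 levels as deposited, and differences are log2 differences with the standard error of limma's fit over all 9 arrays. A gene is said to have risen or fallen where the Benjamini-Hochberg adjusted p over all 32194 rows was under 0.05. Each array is 1 mouse, and 3 arrays a group limit the precision. The spread behind the p-values is pooled over all 3 groups. The anti-PD-1/L1 arrays therefore also enter the test of the combination against anti-CD27. The median SD of the 39 genes was 0.06 in the combination, 0.03 with anti-CD27 and 0.13 with anti-PD-1/L1. Cd8a had a mean level of 10.53 in the combination, 10.77 with anti-CD27 and 9.21 with anti-PD-1/L1, and Thy1 one of 8.39, 8.44 and 7.41 in the same order, so both sort markers were present in every group. The mean level of each of 7 marker lists of other spleen cells lay between 2.08 and 4.40 on every array, and 6 of their 47 measured genes had a mean above 5 in at least 1 group. Of those, Ikzf2, listed for regulatory T cells, averaged 6.07 in the combination, 6.44 with anti-CD27 and 4.16 with anti-PD-1/L1, and Gzmk, listed for NK cells, 6.01, 3.96 and 5.43 in the same order. In that order, Zbtb7b, listed for CD4 T cells, averaged 5.60, 5.78 and 6.34, and Cd68, listed for macrophages, 5.90, 5.55 and 5.13. Cd79b, listed for B cells, averaged 5.40, 5.64 and 5.73, and the erythroid row of Hba-a1 and Hba-a2 4.49, 4.37 and 5.50. Of the 47, 2 rose and 1 fell in the combination relative to anti-CD27. Klra4 and Klra1 of the NK cell list are read from the same row, which counts for both. The anti-PD-1/L1 arrays stood furthest apart in their positive, background, and bacterial and phage controls, but not in their negative controls. Bacterial and phage controls averaged 8.60 in the combination and 8.60 with anti-CD27 against 9.75 with anti-PD-1/L1. For these controls too, the exact permutation p of each difference from anti-PD-1/L1 was 0.1. Negative controls averaged 2.78 in the combination, 2.92 with anti-CD27 and 2.77 with anti-PD-1/L1. Positive controls averaged 6.81 in the combination and 6.70 with anti-CD27 against 5.75 with anti-PD-1/L1, background controls averaged 3.25 and 3.27 against 4.06, and the exact permutation p of each difference from anti-PD-1/L1 was 0.1, the smallest that 3 against 3 arrays allow. The combination and anti-CD27 arrays were also separated in their positive controls (6.76 to 6.83 against 6.68 to 6.72), in their negative controls (2.71 to 2.85 against 2.85 to 2.97) and in the SD of all rows (2.25 to 2.27 against 2.23 to 2.24), each with an exact p of 0.1. Whether this comes from the arrays, the RNA or the cells cannot be told apart from the treatment. In bulk RNA, fewer cells in a growing state and less RNA of a gene per cell cannot be told apart either.

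Myc was highest in the combination and lowest with anti-PD-1/L1. Its levels were 7.14, 7.14 and 6.90 on the combination arrays, 6.84 on all 3 anti-CD27 arrays, and 6.03, 6.29 and 6.18 on the anti-PD-1/L1 arrays. The 3 groups did not overlap. Myc rose by 0.89 ± 0.09 in the combination relative to anti-PD-1/L1 (limma adjusted p = 3.33e-05) and by 0.67 ± 0.09 with anti-CD27 relative to anti-PD-1/L1 (adjusted p = 0.000164). Between the combination and anti-CD27 it differed by 0.22 ± 0.09 (adjusted p = 0.411) and did not pass, and it passed under none of the 20 alternative settings tried for that comparison, where its adjusted p ranged between 0.0811 and 0.983. With the mean of the positive controls as a covariate, Myc passed in neither comparison with anti-PD-1/L1, and after quantile normalization the call of anti-CD27 against anti-PD-1/L1 was also lost.

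The hexamer CACGTG is the E-box to which Myc and Max are known to bind, and it reads the same on both strands. Windows of 300 bases, 250 before to 50 after the start site, were taken from RefSeq (GRCm38.p6) for 34 of the 39 genes. CACGTG stood in the window of 6 of them (17.6%), against 8.09% of 27025 genes and 8.91% of 17492 protein-coding genes with a window. The 30 bases around each match are shown here to place the motif, which is in capitals, in the genes whose values follow. Each is written 5′ to 3′ on the strand of the gene.
Utp20, chr10:88826765-88826794, minus strand: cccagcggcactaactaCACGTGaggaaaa
Nop2, chr6:125131811-125131840, plus strand: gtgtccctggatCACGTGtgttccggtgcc
Tsr1, chr11:74898092-74898121, plus strand: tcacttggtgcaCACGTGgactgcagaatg
Wdr43, chr17:71616220-71616249, plus strand: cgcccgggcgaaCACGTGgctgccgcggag
Pes1, chr11:3963965-3963994, plus strand: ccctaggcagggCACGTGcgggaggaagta
Mybbp1a, chr11:72441347-72441376, plus strand: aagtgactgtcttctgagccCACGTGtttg
In Nop2 the motif begins 60 bases before the start site. In the other 5 it begins 3 to 41 bases after it, within the transcribed part. The differences of these 6 genes between the combination and anti-CD27 ran between 0.19 for Wdr43 and 0.46 for Utp20, and of them Utp20 alone rose. A match of letters is not a measured binding site.

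Relative to anti-CD27, the combination had higher levels of 6 of the 39 genes and lower levels of none. Dkc1, Nolc1 and Nop56 of the snoRNP proteins rose, as did Heatr1 and Utp20 of small subunit processing and Ftsj3 of large subunit processing. Of all rows, 1.21% rose and 0.503% fell in this comparison. Without the dimmest 50% of rows, 577 of 16097 rows rose and 237 fell, and 9 of the 39 genes rose. The differences of the 39 genes ran between -0.03 and 0.55 with a median of 0.22, against a median of -0.0027 over all rows. Of the 39, 37 were positive, against 47.9% of all rows. On 28 of the 39 genes every combination array lay above every anti-CD27 array, which was so for 12.1% of all rows. At an unadjusted p under 0.05, 3132 of all rows differed in this comparison.

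**Figure D1:**
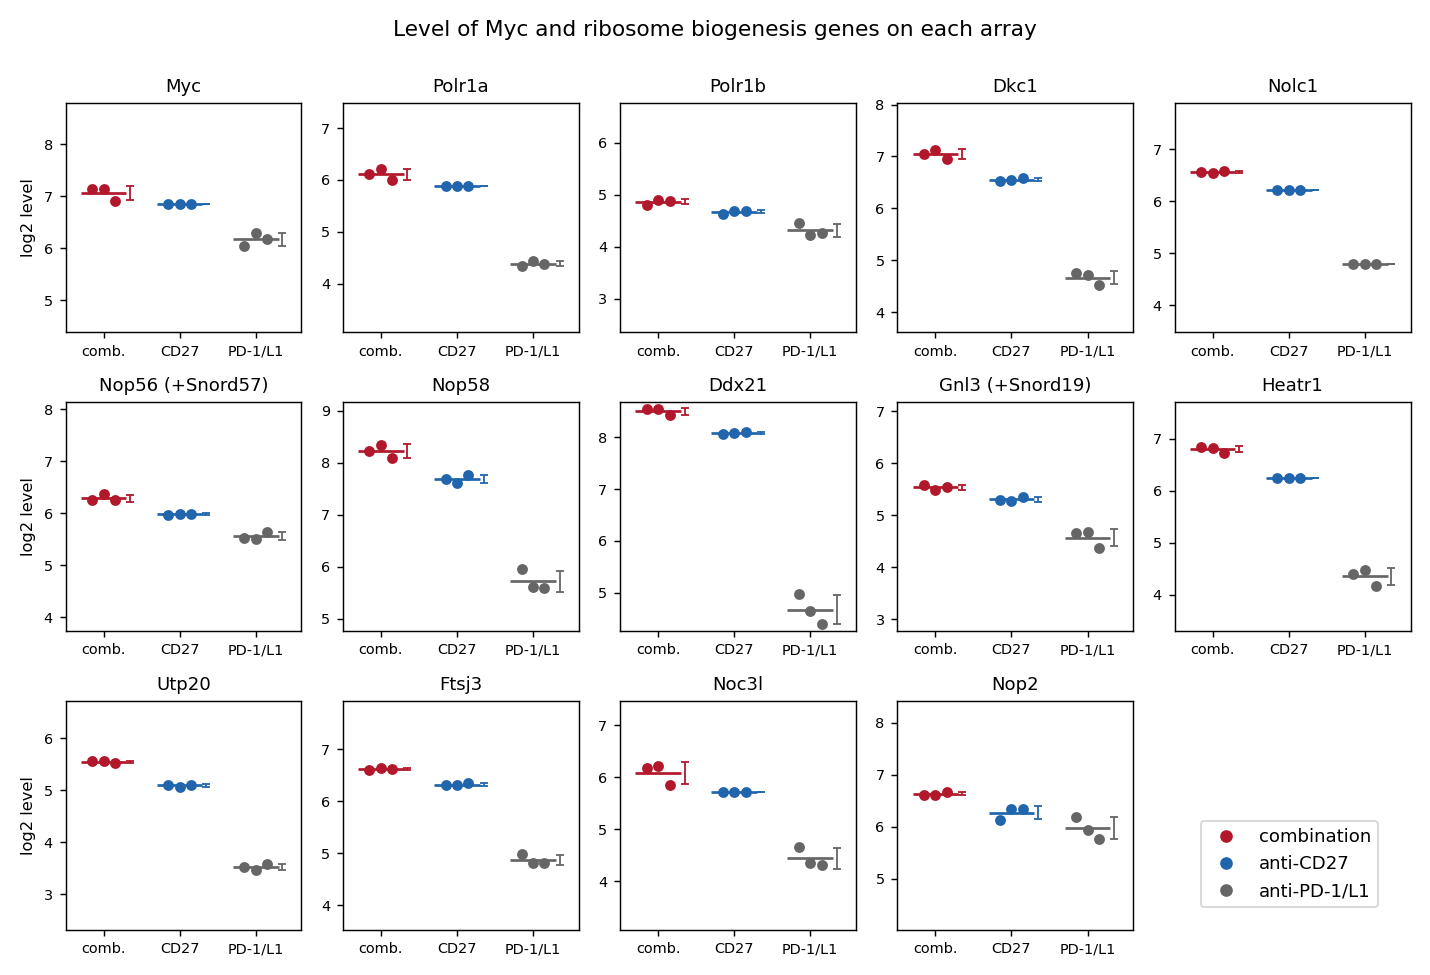
Log2 level (vertical axes) of 14 genes, Myc, the 2 of each role list with the largest absolute difference between the combination and anti-CD27 and those that rose there, with 1 point per array, the group mean as a line and the SD of 3 arrays as a bar. In these 14, the combination arrays lie above the anti-CD27 arrays in every panel, and the anti-PD-1/L1 arrays lie lowest except for 1 array of Nop2, which lies within the anti-CD27 range.

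RNA polymerase I showed small positive differences between the combination and anti-CD27, and none of its 5 genes passed (median 0.16). Polr1a, the largest subunit, had 6.12, 6.21 and 5.99 in the combination, 5.89 on all 3 anti-CD27 arrays, and 4.34, 4.44 and 4.38 with anti-PD-1/L1. Its combination and anti-CD27 arrays did not overlap, and the difference was 0.21 ± 0.06 (adjusted p = 0.185). Polr1b, the second largest subunit, had 4.81, 4.90 and 4.89 in the combination, 4.64, 4.69 and 4.69 with anti-CD27, and 4.46, 4.23 and 4.26 with anti-PD-1/L1. The 3 groups of Polr1b lay close together without overlap, and the difference between the combination and anti-CD27 was 0.19 ± 0.07 (adjusted p = 0.338). Polr1e, a smaller subunit of the enzyme, differed by 0.16 ± 0.05, Ubtf, the factor that keeps ribosomal DNA open for transcription, by 0.10 ± 0.08, and Polr1c, a subunit shared with RNA polymerase III, by 0.06 ± 0.08, the last pair with overlapping arrays.

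The snoRNP proteins held 3 of the 6 genes that rose between the combination and anti-CD27, and all 9 differences were positive (median 0.28). Dkc1, the pseudouridine synthase of the box H/ACA particles, had 7.05, 7.13 and 6.96 in the combination, 6.54, 6.55 and 6.59 with anti-CD27, and 4.75, 4.72 and 4.52 with anti-PD-1/L1. The 3 groups were separated, and Dkc1 rose by 0.49 ± 0.07, or 1.40-fold (adjusted p = 0.015). Nolc1, a nucleolar chaperone of snoRNPs, had 6.56, 6.54 and 6.58 in the combination, 6.21 on all 3 anti-CD27 arrays and 4.79 on all 3 anti-PD-1/L1 arrays. Its spread within groups was small, and it rose by 0.35 ± 0.04 (adjusted p = 0.00629).

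Both scaffold proteins of the box C/D particles, which guide methylation of ribosomal RNA, were also higher in every combination array than in every anti-CD27 array. The row of Nop56 and Snord57 had 6.25, 6.36 and 6.25 in the combination, 5.97, 6.00 and 6.00 with anti-CD27, and 5.53, 5.52 and 5.65 with anti-PD-1/L1. It rose by 0.30 ± 0.06 relative to anti-CD27 (adjusted p = 0.0419). Nop58 had 8.23, 8.35 and 8.09 in the combination, 7.68, 7.61 and 7.77 with anti-CD27, and 5.95, 5.62 and 5.59 with anti-PD-1/L1. Its difference of 0.54 ± 0.11 was the second largest of the 39 genes but came with more spread between mice, and it missed the threshold (adjusted p = 0.0504). Fbl, the methyltransferase of the same particles, differed by 0.24 ± 0.10, and Rrp9, a protein of the U3 snoRNP, by 0.04 ± 0.07. Of the other H/ACA proteins, Nhp2 differed by 0.28 ± 0.08, Nop10 by 0.11 ± 0.11 and Gar1 by 0.08 ± 0.05, and none of the 3 passed.

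Of the 5 nucleolar proteins with several functions, none passed between the combination and anti-CD27 (median 0.20). Ddx21, an RNA helicase of the nucleolus, had 8.53, 8.53 and 8.42 in the combination, 8.05, 8.07 and 8.11 with anti-CD27, and 4.97, 4.66 and 4.41 with anti-PD-1/L1. Its combination arrays lay above its anti-CD27 arrays by 0.42 ± 0.12 (adjusted p = 0.189), and the spread was widest within anti-PD-1/L1. The row of Gnl3, the GTPase nucleostemin, and Snord19 had 5.58, 5.49 and 5.54 in the combination, 5.29, 5.27 and 5.35 with anti-CD27, and 4.66, 4.68 and 4.38 with anti-PD-1/L1. The groups did not overlap, with a difference of 0.23 ± 0.08 between the combination and anti-CD27 (adjusted p = 0.321). Mybbp1a, a Myb-binding protein of the nucleolus, differed by 0.20 ± 0.09, while the abundant nucleolar proteins Ncl (0.10 ± 0.10) and Npm1 (0.05 ± 0.15) had overlapping arrays.

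In small subunit processing, Heatr1 and Utp20 rose in the combination relative to anti-CD27, and 7 of the 9 genes did not pass (median 0.22). Both products belong to the small subunit processome, the large particle in which the precursor of 18S ribosomal RNA is first cut. Heatr1 had 6.84, 6.82 and 6.73 in the combination, 6.25 on all 3 anti-CD27 arrays to this precision, and 4.40, 4.48 and 4.17 with anti-PD-1/L1. It rose by 0.55 ± 0.08, or 1.46-fold (adjusted p = 0.0132), the largest difference of the 39 genes in this comparison. Utp20 had 5.55, 5.57 and 5.53 in the combination, 5.10, 5.06 and 5.11 with anti-CD27, and 3.53, 3.46 and 3.57 with anti-PD-1/L1. It rose by 0.46 ± 0.05 relative to anti-CD27 (adjusted p = 0.00376), with all groups apart. Rrp12, an export factor of the small subunit, came close to the threshold at 0.32 ± 0.07 (adjusted p = 0.059). Tsr1 (0.24 ± 0.07), Nop14 (0.22 ± 0.06), Wdr43 (0.19 ± 0.07) and Utp15 (0.18 ± 0.12), all of small subunit assembly, also had separated arrays without passing. Nob1, the nuclease that makes the final cut of 18S ribosomal RNA, differed by 0.08 ± 0.08 and Noc4l by -0.0008 ± 0.06, with overlapping arrays.

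In large subunit processing, Ftsj3 alone of 10 genes rose in the combination relative to anti-CD27 (median 0.24). Ftsj3, a methyltransferase-like factor of large subunit assembly, had 6.60, 6.63 and 6.61 in the combination, 6.30, 6.30 and 6.34 with anti-CD27, and 4.98, 4.81 and 4.81 with anti-PD-1/L1. The groups were well apart, and it rose by 0.30 ± 0.06 (adjusted p = 0.0416). Noc3l, a factor of early large subunit particles, had 6.17, 6.22 and 5.84 in the combination, 5.71 on all 3 anti-CD27 arrays, and 4.67, 4.34 and 4.30 with anti-PD-1/L1. The third combination mouse lay well below the others, and the difference of 0.37 ± 0.12 did not pass (adjusted p = 0.263). Nop2, a methyltransferase of 28S ribosomal RNA, had 6.62, 6.62 and 6.66 in the combination, 6.12, 6.34 and 6.34 with anti-CD27, and 6.19, 5.94 and 5.77 with anti-PD-1/L1. The combination lay above both other groups, which overlapped each other, at 0.37 ± 0.11 over anti-CD27 (adjusted p = 0.184). Bop1, Pes1 and Wdr12 form the PeBoW complex of large subunit assembly: Bop1 differed by 0.22 ± 0.06 and Pes1 by 0.23 ± 0.13 with separated arrays, whereas Wdr12 differed by -0.03 ± 0.09 with overlapping ones. The helicase Ddx18 (0.28 ± 0.14), Nip7 (0.24 ± 0.13) and Rrp1b (0.24 ± 0.05, adjusted p = 0.0686) did not pass, and Nop16 differed by 0.06 ± 0.06.

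**Figure D2:**
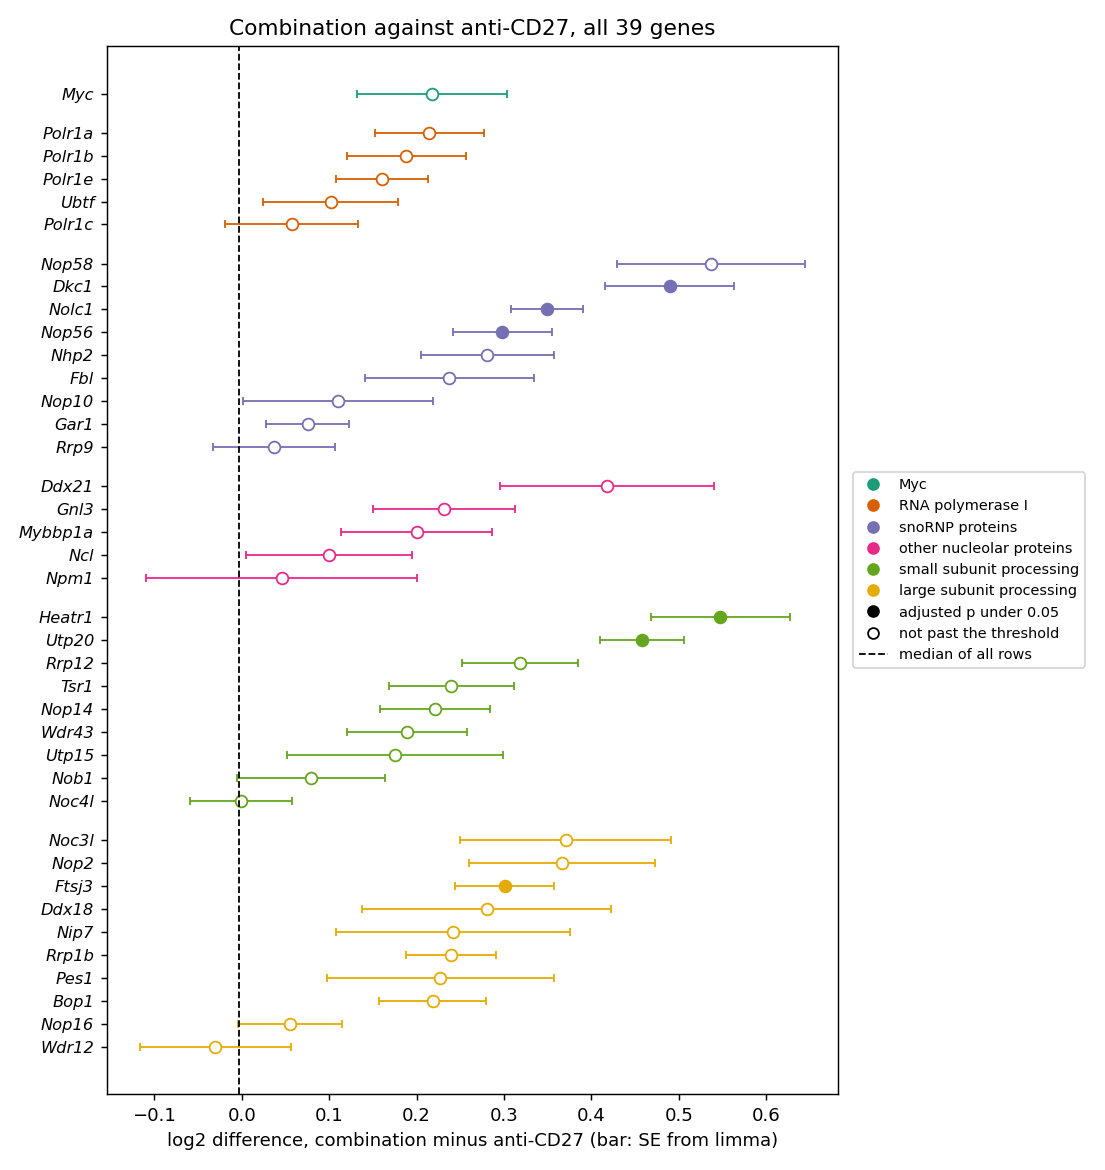
Log2 difference of the combination minus anti-CD27 (horizontal axis) for the 39 genes, grouped by role, with the standard error of limma as a bar. Filled points are the 6 genes that rose, open points did not pass, the dashed line is the median of all rows, and 37 of the points lie above 0.

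How many of the 39 genes rose between the combination and anti-CD27 changed with the setting. Nolc1 and Utp20 passed under all 20 alternatives (adjusted p up to 0.0468 and 0.0328). Dkc1 and Heatr1 were lost without combination replicate 1 or 2 or without any anti-CD27 array (adjusted p up to 0.0858 and 0.0706), and quantile normalization lost Dkc1 too. Nop56 and Ftsj3 were lost without any 1 array of either group (adjusted p up to 0.184 and 0.183). Both were also lost with quantile normalization, with every transcript probe set tested, with the replicate number as a block and with tied groups left out of the spread, and Ftsj3 with centring too. The count was 2 without combination replicate 1 or 2 or without any anti-CD27 array and 11 without anti-PD-1/L1 replicate 1, while it was 19 in a fit of the 6 arrays compared, 23 with array weights per group and 10 with the positive control covariate. After quantile normalization it was 3, and over all rows 59.6% of the calls were then rises, against 70.7% in the values as deposited. The same deposited value stood on all 3 anti-CD27 arrays for 9 of the 39 genes (Myc, Polr1a, Fbl, Nolc1, Mybbp1a, Tsr1, Pes1, Noc3l and Rrp1b) and for none on the combination or anti-PD-1/L1 arrays, against 8.8% of all rows with anti-CD27, 5.61% in the combination and 0.736% with anti-PD-1/L1. Such a tie gives an SD of 0 in that group. With tied groups left out of the spread, a setting chosen after the ties were seen, 5 genes rose. That setting leaves out only groups with 1 value on all 3 arrays. Heatr1 and Nop56 had the same anti-CD27 value on 2 arrays, with SDs of 0.0019 and 0.0134, and stayed in the spread.

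Relative to anti-PD-1/L1, most of the 39 genes were higher in the combination. There 31 rose, 3 fell and 5 did not pass, and the differences ran between -0.60 and 3.81 with a median of 0.95. With anti-CD27 relative to anti-PD-1/L1, 31 rose, 4 fell and 4 did not pass, between -0.66 and 3.40 with a median of 0.67. Of all rows, 19.1% rose and 52.9% fell in the combination and 17.2% rose and 53.2% fell with anti-CD27, with medians of -0.25 and -0.26, so the median of the 39 genes lay on the other side of 0 from that of all rows. All combination arrays lay above all anti-PD-1/L1 arrays for 30 of the 39 genes and 19.0% of rows, and all anti-CD27 arrays did for 29 genes and 17.5% of rows. Both comparisons share the anti-PD-1/L1 arrays, so their values stand side by side and do not support each other.

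The scaling of the arrays bears on these counts. Of all calls in the combination against anti-PD-1/L1, 26.5% were rises as deposited, 46.3% after quantile normalization and 69.9% after centring each array on its median, which put the median of all rows at -0.03 and 0.12. With anti-CD27 against anti-PD-1/L1 these shares were 24.4%, 46.3% and 69.1%. Of the 39 genes, 27 rose and 7 fell in the combination after quantile normalization, and 36 rose and 1 fell after centring. With anti-CD27, 25 rose and 7 fell after quantile normalization and 35 rose and 1 fell after centring. With the positive controls as a covariate, which themselves differ between these groups, 13 rose in the combination and 11 with anti-CD27, and none fell. The CD8 T cell markers moved with the 39 genes: 6 of 8 rose and 1 fell relative to anti-PD-1/L1 in both comparisons, and their mean level on an array ran between 9.75 and 9.87 in the combination, 9.93 and 9.95 with anti-CD27, and 8.61 and 9.19 with anti-PD-1/L1. The markers of other spleen cells moved the other way: of 47, 35 fell and 3 rose in the combination (median -0.33), and 36 fell and 2 rose with anti-CD27 (median -0.31), beside the shares of 52.9% and 53.2% of all rows that fell. The mean levels of these marker lists were low, between 2.08 and 4.40 on every array. Background controls averaged 3.25 in the combination, 3.27 with anti-CD27 and 4.06 with anti-PD-1/L1. Without the dimmest 50% of rows, the median of all rows was -0.03 in the combination and -0.06 with anti-CD27, against -0.25 and -0.26 with them. Of the 16097 rows then left, 5929 rose and 6506 fell in the combination, and 5353 rose and 6598 fell with anti-CD27. The count of rises among the 39 genes stayed at 31 in both comparisons. The part of these markers and of their low levels in the result was not tested.

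**Figure D3:**
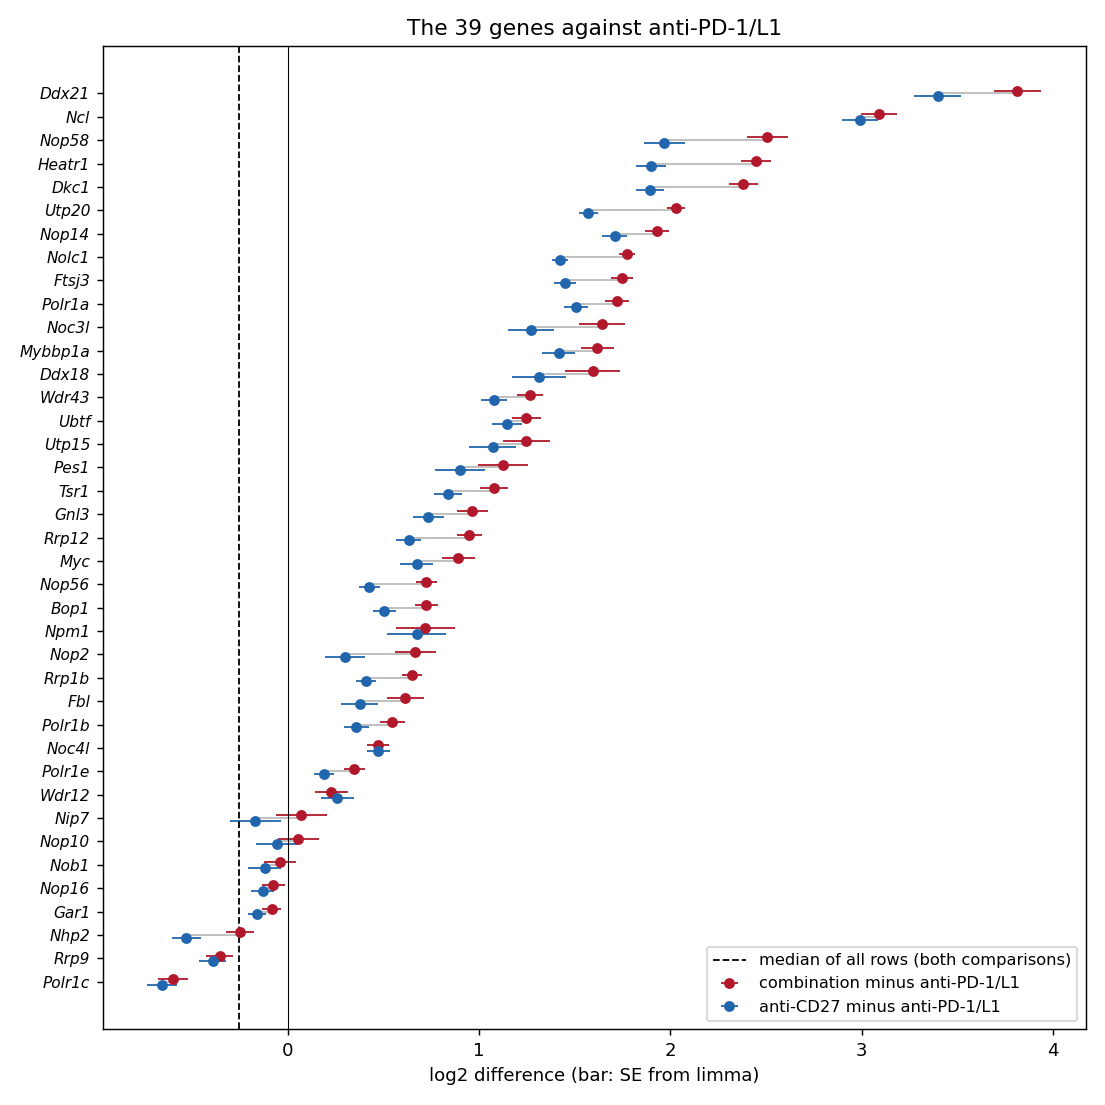
Log2 differences (horizontal axis) of the 39 genes in the combination (red) and with anti-CD27 (blue) relative to anti-PD-1/L1, with the standard error of limma as a bar and genes ordered by the difference in the combination. The dashed line marks the medians of all rows, and the points run between -0.66 and 3.81.

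The nucleolar proteins with several functions had the highest median difference from anti-PD-1/L1 of the role lists (1.62 in the combination and 1.42 with anti-CD27), and all 5 rose in both comparisons. Ddx21 and Ncl had the largest differences of the 39 genes, while Npm1 and Gnl3 lay below many genes of the other lists. Ddx21 rose by 3.81 ± 0.12 in the combination (adjusted p = 8.1e-08) and by 3.40 ± 0.12 with anti-CD27 (adjusted p = 1.45e-07), or 14.1-fold and 10.5-fold. Ncl, nucleolin, had 9.16, 9.16 and 9.04 in the combination and 8.95, 8.95 and 9.14 with anti-CD27, against 6.23, 5.94 and 5.91 with anti-PD-1/L1. Its combination and anti-CD27 arrays overlapped and lay far above anti-PD-1/L1, by 3.09 ± 0.10 and 2.99 ± 0.10. Npm1, nucleophosmin, rose by 0.72 ± 0.15 and 0.67 ± 0.15, the smallest rises of the 5, with 1 anti-PD-1/L1 array at 8.66 below the others at 9.36 and 9.12. Mybbp1a rose by 1.62 ± 0.09 and 1.42 ± 0.09, and the row of Gnl3 and Snord19 by 0.96 ± 0.08 and 0.73 ± 0.08.

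In polymerase I, 4 of 5 genes rose and Polr1c fell in both comparisons with anti-PD-1/L1. Polr1a rose by 1.72 ± 0.06 in the combination and by 1.51 ± 0.06 with anti-CD27, Ubtf by 1.25 ± 0.08 and 1.14 ± 0.08, Polr1b by 0.55 ± 0.07 and 0.36 ± 0.07, and Polr1e by 0.35 ± 0.05 and 0.19 ± 0.05. Polr1c had 6.80, 6.69 and 6.81 in the combination and 6.66, 6.83 and 6.65 with anti-CD27, against 7.49, 7.35 and 7.27 with anti-PD-1/L1. It fell by 0.60 ± 0.08 in the combination (adjusted p = 0.000145) and by 0.66 ± 0.08 with anti-CD27 (adjusted p = 9.87e-05), and it stayed lower under quantile normalization and centring. With the positive control covariate it did not pass.

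The snoRNP proteins split relative to anti-PD-1/L1. Nop58 rose by 2.51 ± 0.11 in the combination and 1.97 ± 0.11 with anti-CD27, Dkc1 by 2.38 ± 0.07 and 1.89 ± 0.07, and Nolc1 by 1.77 ± 0.04 and 1.42 ± 0.04. Smaller rises were those of the row of Nop56 and Snord57 (0.72 ± 0.06 and 0.43 ± 0.06) and of Fbl (0.61 ± 0.10 and 0.38 ± 0.10). The row of Nop56 did not pass with anti-CD27 after quantile normalization, and the rise of Fbl did not pass after quantile normalization, where its difference with anti-CD27 was -0.035. Thus Fbl, Nop56 and Nop58 of the box C/D particles all rose as deposited, while of the H/ACA proteins Dkc1 alone rose. Nhp2 had 6.67, 6.63 and 6.63 in the combination and 6.32, 6.42 and 6.34 with anti-CD27, against 7.004, 6.72 and 6.95 with anti-PD-1/L1. It fell by 0.25 ± 0.08 in the combination and by 0.53 ± 0.08 with anti-CD27. Gar1 fell by 0.16 ± 0.05 with anti-CD27 (adjusted p = 0.0148), a call lost without anti-CD27 replicate 1, and differed by -0.09 ± 0.05 in the combination, and Nop10 passed in neither comparison (0.05 ± 0.11 and -0.06 ± 0.11). Rrp9 fell by 0.36 ± 0.07 and by 0.39 ± 0.07. After centring, the difference of Nhp2 in the combination was 0.12, that of Rrp9 in the combination 0.018 and that of Gar1 with anti-CD27 0.20, so these directions depend on the scaling.

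Of 9 small subunit genes, 8 rose in both comparisons with anti-PD-1/L1. Heatr1 rose by 2.45 ± 0.08 in the combination and by 1.90 ± 0.08 with anti-CD27, and Nop14 by 1.93 ± 0.06 and 1.71 ± 0.06. Utp20 differed by 2.03 ± 0.05 and 1.57 ± 0.05, but its anti-PD-1/L1 level of 3.52 lay below the background controls of 4.06. Counted from those controls, the differences were 1.49 and 1.03, or 2.80-fold and 2.04-fold. The negative controls averaged 2.77 with anti-PD-1/L1, so these sizes depend on the control taken. No other of the 39 genes had a group mean at or below the background controls. Wdr43 (1.27 ± 0.07 and 1.08 ± 0.07), Utp15 (1.25 ± 0.12 and 1.07 ± 0.12), Tsr1 (1.08 ± 0.07 and 0.84 ± 0.07), Rrp12 (0.95 ± 0.07 and 0.63 ± 0.07) and Noc4l (0.47 ± 0.06 and 0.47 ± 0.06) rose as well. Noc4l did not pass after quantile normalization. Nob1, which acts last in the cytoplasm, had overlapping arrays in all groups and passed in neither comparison (-0.04 ± 0.08 and -0.12 ± 0.08).

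Of 10 large subunit genes, 8 rose in both comparisons with anti-PD-1/L1. Ftsj3 rose by 1.75 ± 0.06 in the combination and by 1.45 ± 0.06 with anti-CD27, Noc3l by 1.64 ± 0.12 and 1.27 ± 0.12, and Ddx18 by 1.59 ± 0.14 and 1.31 ± 0.14. The PeBoW genes differed among themselves, with Pes1 at 1.12 ± 0.13 and 0.90 ± 0.13, Bop1 at 0.72 ± 0.06 and 0.50 ± 0.06, and Wdr12 at 0.23 ± 0.09 and 0.26 ± 0.09. Wdr12 overlapped anti-PD-1/L1 in both comparisons, and its calls (adjusted p = 0.0411 and 0.026) were lost after quantile normalization and without anti-PD-1/L1 replicate 2 or 3 or anti-CD27 replicate 2 or 3, and in the combination without any 1 array other than anti-PD-1/L1 replicate 1. Nop2 rose by 0.67 ± 0.11 and 0.30 ± 0.11, the call with anti-CD27 (adjusted p = 0.0323) being lost without anti-CD27 replicate 2 or 3 or anti-PD-1/L1 replicate 2 or 3. After quantile normalization Nop2 passed in neither comparison, with differences of 0.24 in the combination (adjusted p = 0.0521) and -0.048 with anti-CD27. Rrp1b rose by 0.65 ± 0.05 and 0.41 ± 0.05. Nip7 (0.07 ± 0.13 and -0.17 ± 0.13) and Nop16 (-0.08 ± 0.06 and -0.13 ± 0.06) passed in neither.

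The other genes of the pathway were read from 9 further lists with 182 genes, of which 175 were measured. Their counts between the combination and anti-CD27 stand beside shares of 1.21% of all rows that rose and 0.503% that fell. Between the combination and anti-CD27, 4 of 45 other small subunit genes rose (median 0.15), namely Pno1 by 0.51 ± 0.07, Nol10 by 0.47 ± 0.06, Bysl and Ltv1. Of 45 other large subunit genes 2 rose (median 0.12): Nvl, an AAA ATPase that releases factors from early particles, by 0.48 ± 0.06, and Urb2 by 0.40 ± 0.07. Of 14 genes of the nuclear exosome, which trims ribosomal RNA precursors, Exosc8 and Mphosph6 rose (0.57 ± 0.11 and 0.40 ± 0.07, median of the list 0.24). None of 13 other polymerase I genes passed (median 0.05), where the initiation factor Rrn3 had the largest difference at 0.35 ± 0.15 (adjusted p = 0.48), and none of 16 other genes of snoRNP assembly and rRNA modification did (median 0.13), where Naf1 had the largest at 0.47 ± 0.18 (adjusted p = 0.397). All 4 measured RNAs of the ribosome or nucleolus had negative differences (median -0.19), and none passed. The largest was that of Rpph1, the RNA of ribonuclease P, at -0.35 ± 0.09 (adjusted p = 0.148). None of the 175 genes fell by limma in this comparison, and 4 were lower at an unadjusted p under 0.05.

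The Myc network list holds Max, proteins that pair or compete with it, and Mlx and Mlxip. None of its 11 genes passed between the combination and anti-CD27, with a median of -0.06 and the largest difference at Mxd4, a repressor that competes for Max (-0.32 ± 0.10, adjusted p = 0.252). Of 16 known Myc targets outside the nucleolus 2 rose, with a median of 0.28: Ppat, the first enzyme of purine synthesis, by 0.59 ± 0.07 (adjusted p = 0.00818) and C1qbp, a mitochondrial protein, by 0.30 ± 0.06 (adjusted p = 0.0419). For scale, 10 of 11 DNA replication genes rose in the same comparison with a median of 1.09, among them Rrm2 by 1.52 ± 0.19 and Mcm3 by 1.30 ± 0.09. Mki67, a marker of dividing cells, had 8.14, 8.18 and 9.11 in the combination and 7.79, 6.87 and 7.54 with anti-CD27, against 3.95, 4.74 and 4.80 with anti-PD-1/L1. Its groups did not overlap, but its spread was wide and the difference between the combination and anti-CD27 did not pass (1.08 ± 0.35, adjusted p = 0.255).

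**Figure D4:**
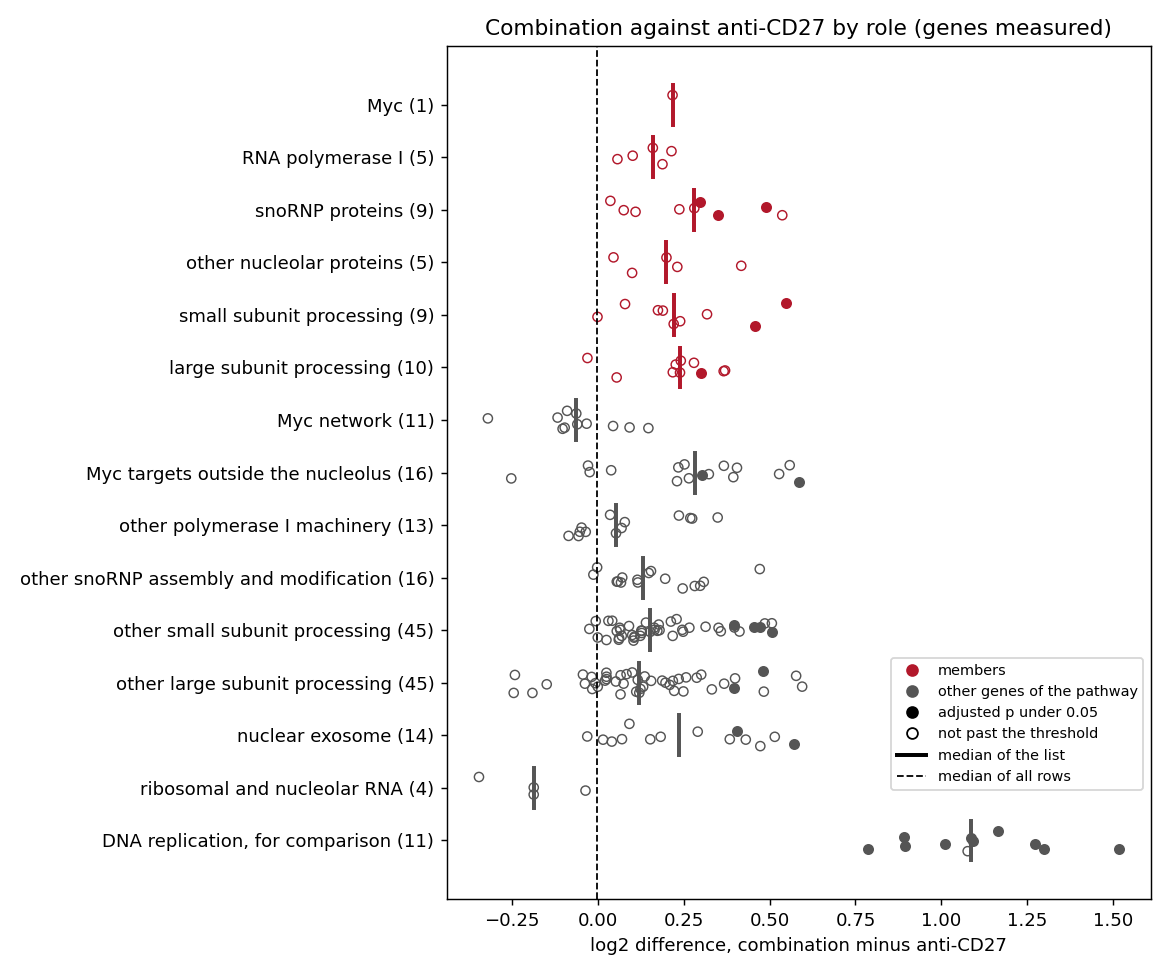
Log2 difference of the combination minus anti-CD27 (horizontal axis) for the 39 genes (red) and the other genes of the pathway (grey) by role, with the number of genes measured in brackets, filled points for adjusted p under 0.05, a bar at each list's median and a dashed line at the median of all rows. The medians of the 5 role lists of several genes among the 39 lie between 0.16 and 0.28, and that of the DNA replication genes lies at 1.09.

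Relative to anti-PD-1/L1 the other lists of the pathway also held both rises and falls, beside 19.1% of all rows that rose and 52.9% that fell in the combination and 17.2% and 53.2% with anti-CD27. Of 45 other small subunit genes 36 rose and 2 fell in the combination, and 31 rose and 2 fell with anti-CD27. Bms1, a GTPase of the processome, rose by 3.21 ± 0.07 and 2.96 ± 0.07 and the helicase Ddx52 by 2.47 ± 0.19 and 2.33 ± 0.19, whereas Imp3, which binds U3 RNA, fell by 0.40 ± 0.11 and by 0.47 ± 0.11 and Rrp36 by 0.23 ± 0.08 and by 0.30 ± 0.08. Of 45 other large subunit genes 28 rose and 4 fell in the combination and 27 rose and 5 fell with anti-CD27. Ddx24 rose by 2.00 ± 0.09 and 2.25 ± 0.09, Sdad1 by 1.96 ± 0.08 in the combination and Ddx54 by 1.57 ± 0.06 with anti-CD27. Rrs1, which brings 5S RNA particles into the large subunit, fell by 0.64 ± 0.09 and by 0.77 ± 0.09, Ppan by 0.50 ± 0.06 in the combination and Eif6, which keeps the subunits from joining, by 0.66 ± 0.11 with anti-CD27. In the exosome 9 of 14 rose and 2 fell in the combination and 6 rose and 3 fell with anti-CD27, with rises of the nuclease Dis3 (2.13 ± 0.12 and 1.62 ± 0.12) and the helicase Mtrex (2.02 ± 0.16 and 1.63 ± 0.16) beside falls of the ring proteins Exosc5 (by 0.66 ± 0.06 and by 0.67 ± 0.06) and Exosc4 (by 0.35 ± 0.08 and by 0.40 ± 0.08). After centring, the differences of Rrp36 were 0.14 and 0.057 and that of Exosc4 in the combination was 0.020.

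In the remaining lists, 10 of 16 genes of snoRNP assembly and modification rose and 3 fell in the combination and 7 rose and 4 fell with anti-CD27. Naf1, an assembly factor of the H/ACA particles, and Tgs1, the cap hypermethylase, rose from mean anti-PD-1/L1 levels below the background controls. Each anti-PD-1/L1 array was then taken at the higher of its level and its background controls. Naf1 so differed by 2.35 in the combination and 1.87 with anti-CD27, and Tgs1 by 1.47 and 1.35. Emg1, an 18S RNA methyltransferase, fell by 0.95 ± 0.06 and by 0.94 ± 0.06, and Znhit3 by 0.47 ± 0.12 and by 0.62 ± 0.12. Of 13 other polymerase I genes 5 rose and 3 fell in the combination and 6 rose and 4 fell with anti-CD27. Rrn3 rose by 1.33 ± 0.15 and 0.98 ± 0.15 and Tcof1 by 0.71 ± 0.06 and 0.74 ± 0.06, while the shared subunits Polr1d fell by 0.52 ± 0.08 and by 0.57 ± 0.08 and Polr2k by 0.82 ± 0.09 and by 1.09 ± 0.09. The row of Polr2k also names LOC100862456.

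Of the Myc network, 4 of 11 genes rose and 3 fell in the combination relative to anti-PD-1/L1, and 6 rose and 4 fell with anti-CD27. Mga, a repressor that pairs with Max, rose by 1.96 ± 0.08 and 2.05 ± 0.08, and Mlxip by 1.44 ± 0.08 and 1.55 ± 0.08. The anti-PD-1/L1 level of Mga, 3.96, lay below the background controls, and counted from those controls its differences were 1.86 and 1.95. Both relatives of Myc fell while Myc rose: Mycn by 1.11 ± 0.09 and by 1.05 ± 0.09, and Mycl by 0.82 ± 0.11 and by 0.73 ± 0.11. Mycn averaged 3.77 in the combination, 3.83 with anti-CD27 and 4.88 with anti-PD-1/L1, and Mycl 4.44, 4.53 and 5.26. The background controls moved the same way (3.25, 3.27 and 4.06), and their part in these falls was not tested. Of the Myc targets outside the nucleolus, 12 of 16 rose and 2 fell in the combination and 7 rose and 3 fell with anti-CD27. Pa2g4, a growth-linked protein, rose by 1.71 ± 0.18 and 1.15 ± 0.18, Hspd1, the mitochondrial chaperonin, by 1.55 ± 0.12 in the combination, and Ccnd2, a G1 cyclin, by 1.37 ± 0.19 with anti-CD27. Nme2 fell by 0.65 ± 0.08 and by 0.88 ± 0.08, and Hspe1, the partner of Hspd1, by 0.31 ± 0.10 and by 0.35 ± 0.10 as deposited, against differences of 0.063 and 0.0094 after centring. Among 4 RNAs of the ribosome or nucleolus, Rn5s, the 5S ribosomal RNA, fell by 2.21 ± 0.31 and by 2.03 ± 0.31 and Rpph1, the RNA of ribonuclease P, by 1.55 ± 0.09 and by 1.20 ± 0.09. Rn45s, the ribosomal RNA precursor, was not matched to a row.

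Across the 3 treatments, 25 of the 39 genes stood in the order combination, anti-CD27, anti-PD-1/L1 with no overlap between neighbouring groups, as did 5.7% of all rows. By their means alone, 29 of the 39 genes and 14.5% of rows had that order. These counts share the anti-CD27 arrays between both steps of the order and are given as a description. The mean level over the 39 genes ran between 6.54 and 6.60 on the combination arrays, 6.31 and 6.36 on the anti-CD27 arrays, and 5.41 and 5.59 on the anti-PD-1/L1 arrays. The median SD of the 39 genes was 0.06 in the combination, 0.03 with anti-CD27 and 0.13 with anti-PD-1/L1, against 0.07, 0.06 and 0.14 over all rows in the same order.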

How the data were processed

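RNA of sorted Thy1.1+ CD8+ T cells from 9 mice was hybridised to 1 array each. Per the submitters' processing notes the authors summarised the arrays by RMA (oligo 1.38.0), and the deposited values are log2 levels of probe sets. RMA as a method subtracts background, normalizes probes across arrays and summarises them, but the tested rows kept different distributions: their SD averaged 2.26 in the combination, 2.23 with anti-CD27 and 2.05 with anti-PD-1/L1, and their median 3.59, 3.60 and 3.96. The genome build and scan details are not given in the sources used here. The table holds 72688 probe sets, of which 6732 are controls. Of the 65956 others, 31258 name 1 gene, 1492 several and 33206 none. Rows tested were 1 probe set for each of 30702 genes (the highest mean, where 441 genes had more than 1) and all probe sets naming several genes, 32194 in all, with no filter on low values.

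limma 3.58.1 (R 4.3.3) fitted a mean per group on all 9 arrays, with moderated two-sided tests and Benjamini-Hochberg adjustment over all rows. The fit was tested on simulated data. These had no shift between whole arrays, so that test does not cover the control and scaling differences seen here. The changes put into the simulated data were larger than any difference of the 39 genes between the combination and anti-CD27. Differences of that size are therefore not covered either. Groups come from the sample titles. Of the 39, genes given on every array are Myc, the 2 of each role list with the largest absolute difference between the combination and anti-CD27, and every gene that passed there. Cd8a, Thy1, Mki67 and Rn45s were fixed by name, and Mki67 is also given on every array. Of each other pathway list, each comparison names the 2 largest rises and falls that passed, or the largest difference where none passed. Bysl, Ltv1, Ikzf2, Gzmk, Zbtb7b, Cd68, Cd79b, Klra1, Klra4 and the row of Hba-a1 were named outside this rule, after their values were seen. Ncl, Polr1c and Nhp2 were given on every array in the same way. The level of 5 used for markers of other cells was also chosen after the values were seen. The 39 genes and all lists were chosen with earlier results of these data known, so list counts are descriptions. Symbols Polr1f, Polr1g, Polr1h, Nopchap1, Rn45s, Rn18s and Rn5-8s were not matched. Alternatives covered normalization, dim rows, rows fitted, the variance model, arrays fitted, a control covariate, a replicate block and leaving out each array. Promoter windows are from RefSeq.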

Additional observations from a re-analysis of the deposited data

How the results depend on the processing

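With 3 mice a group, no scan batch in the labels and control probe sets that move with the groups, the comparisons with anti-PD-1/L1 cannot be told apart from a difference between arrays, and array values of dim rows are compressed. Between the combination and anti-CD27, the 39 genes had no fall under any setting. Their 6 rises became 3 after quantile normalization, 23 with array weights, 19 with the 6 arrays alone and 10 with the positive control covariate, and 2 to 11 without 1 array, and the median of 0.22 became 0.15 after quantile normalization and ran between 0.19 and 0.23 without 1 array. Between the combination and anti-PD-1/L1, the 31 rises became 13 with the covariate and were 30 to 31 without 1 array, the 3 falls became 7 after quantile normalization, 1 after centring and 0 with the covariate and were 3 to 4 without 1 array, and the median of 0.95 became 0.78, 1.32 and 0.36 under those 3 settings and ran between 0.90 and 1.00 without 1 array. Between anti-CD27 and anti-PD-1/L1, the 31 rises became 11 with the covariate and were 29 to 31 without 1 array, the 4 falls became 7, 1 and 0 under quantile normalization, centring and the covariate and were 3 to 5 without 1 array, and the median of 0.67 became 1.03 after centring and 0.22 with the covariate and ran between 0.64 and 0.78 without 1 array. The causes were not tested. The covariate differs between the groups, so it takes up part of the group difference by construction.

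Replicate numbers do not pair the mice: deviations of same-numbered arrays correlated between -0.195 and 0.159. With the replicate number as a block, 4 of the 39 genes rose in the combination relative to anti-CD27, 30 rose and 3 fell relative to anti-PD-1/L1, and 30 rose and 4 fell with anti-CD27 relative to anti-PD-1/L1.

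Differences that changed sign follow. In the combination relative to anti-CD27, Noc4l was 0.0138 after centring, quantile normalization gave Rrp9 -0.0084, Npm1 -0.0379, Polr1c -0.0169 and the other polymerase I genes a median of -0.021, and the covariate gave Ncl -0.0015 and Npm1 -0.14. Without 1 array, Noc4l ran between -0.0157 and 0.0108, above 0 without combination replicate 1 or 2 or anti-CD27 replicate 2, and Wdr12 between -0.0537 and 0.0005, above 0 without anti-CD27 replicate 3. In the combination relative to anti-PD-1/L1, quantile normalization gave Nop10 -0.10, Nip7 -0.38 and medians of -0.0946 for the Myc network and -0.25 for the other polymerase I genes, and centring gave Gar1 0.29, Nob1 0.33, Rrp9 0.0177, Nhp2 0.12, Nop16 0.30, Hspe1 0.0629, Rrp36 0.14 and Exosc4 0.0201. Without 1 array, Nop10 ran between -0.0737 and 0.1541, Nip7 between -0.0267 and 0.2205 and Nob1 between -0.0981 and 0.0411, and the sign turned without anti-PD-1/L1 replicate 3 for Nop10, replicate 2 for Nip7 and replicate 1 for Nob1. With anti-CD27 relative to anti-PD-1/L1, quantile normalization gave Nop2 -0.0481, Fbl -0.035, the snoRNP proteins a median of -0.035 and the other polymerase I genes -0.24, centring gave Nop10 0.30, Gar1 0.20, Nip7 0.19, Nob1 0.24, Nop16 0.23, Hspe1 0.0094 and Rrp36 0.057, and Nop10 ran between -0.1837 and 0.0441 without 1 array, above 0 without anti-PD-1/L1 replicate 2.

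The positive control covariate changed more signs. In the combination relative to anti-PD-1/L1 it gave Wdr12 -0.73, Nop10 -0.45, Polr1b -0.0136, Gar1 0.11, Polr1e -0.0385, Nop2 -0.37, Fbl -0.33, Nip7 -1.27, Rrp9 0.33, Pes1 -0.25, Npm1 -1.13 and Utp15 -0.30, and outside the 39 genes Mycl 0.47, Pa2g4 -0.37, Rrn3 -0.62, Znhit3 1.00, Rrp36 0.73, Rrs1 0.23, Exosc4 0.0307, Rn5s 0.15, Cd8a -0.70 and Thy1 -0.39. List medians became -0.0136 for polymerase I, -0.35 for other polymerase I genes, -0.012 for other large subunit genes and -0.0656 for the exosome. With anti-CD27 relative to anti-PD-1/L1 it gave Wdr12 -0.61, Polr1b -0.15, Gar1 0.0169, Polr1e -0.16, Nop2 -0.63, Fbl -0.47, Rrp9 0.22, Pes1 -0.34, Npm1 -0.99 and Utp15 -0.32, and outside the 39 genes Mycl 0.44, Ccnd2 -0.88, Pa2g4 -0.72, Rrn3 -0.78, Znhit3 0.70, Rrp36 0.57, Rrs1 0.0218, Rn5s 0.10, Cd8a -0.26 and Thy1 -0.20. List medians became -0.15 for polymerase I, -0.10 for large subunit processing, -0.0646 for Myc targets, -0.51 for other polymerase I genes, and -0.14, -0.11 and -0.14 for other snoRNP genes, other small subunit genes and the exosome.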
